A study of Mus musculus with 18 samples.

Results

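The immunoglobulin kappa variable (Igkv) segments were described in RNAseq data of mouse dorsal spinal tissue. The members were all loci that carry a single gene name starting with Igkv in all 3 deposited expression tables, with an accepted quantification status and overlapping positions. There were 90 such loci with 73 names in 17 V families, the family being the number after Igkv, out of 34579 loci in all. The positions and status of 34175 loci could be joined over the tables, and these are the background throughout. All 90 members lie on chromosome 6 of the mouse genome (GRCm38).

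The tissue was dorsal spinal cord, segments L3–5, of C57BL/6N mice aged 3 months. All mice had received an intraspinal injection of recombinant adeno-associated virus (rAAV), with 1 of 3 Flag-tagged inserts. LacZ served as the control insert, and the other 2 inserts encoded histone deacetylase 4, either in its normal form (HDAC4 wt) or as the mutant HDAC4 3SA, which stays in the nucleus. A hindpaw was injected with saline or with Complete Freund’s Adjuvant (CFA), an inflammatory agent, 24 h before collection. The 6 groups, LacZ saline, LacZ CFA, HDAC4 wt saline, HDAC4 wt CFA, HDAC4 3SA saline and HDAC4 3SA CFA, held 3 different mice each. The promoter of these vectors is not given in the sources used here, and there was no group without rAAV.

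Levels are FPKM, fragments per kilobase of exon relative to all mapped fragments. Each value is the authors’ single estimate for a group of 3 mice, so the spread between mice and the exact depth of each library are not known here and no test of a difference was computed. How much of a group value came from 1 mouse is therefore unknown, and every difference below is a difference between 2 group values, with no replicate check made here. The 3 vectors were quantified in separate tables, so levels across vectors are set side by side only as a description, whereas a share of the Igkv sum is a ratio within 1 group.

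An antibody light chain of the kappa type is encoded by 1 V segment that a B cell joins to 1 J segment, next to the single constant gene Igkc. Each B cell thereby chooses a V segment, its descendants keep it, and the plasma cells that arise from them make large amounts of that 1 transcript. The V segments used in a tissue thus depend on which B cell and plasma cell clones it holds. Healthy spinal cord holds few such cells, and they sit mainly in the meninges and around vessels. In bulk tissue, fewer cells of a type and less RNA per cell cannot be told apart.

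Of the 73 names, 68 are V genes and 5 are V pseudogenes in GENCODE M21, which lists 160 Igkv names, 100 V genes and 60 pseudogenes. A V gene has a short leader exon and a V exon that encodes the variable domain. The V exons of some of the highest members, chosen from those named below, are shown here because the segments resemble each other and the reads were 50 bases long. Sequences are those of the GENCODE M21 transcripts on GRCm38, written 5′ to 3′ on the strand of the gene. Capitals mark the bases that differ from the Igkv V exon most like it. The V exon of Igkv6-32 (chr6:70074024-70074321, minus strand), the only segment among the 3 highest in every HDAC4 group, was 85.9% identical to Igkv6-17, with 42 differing bases.
Igkv6-32: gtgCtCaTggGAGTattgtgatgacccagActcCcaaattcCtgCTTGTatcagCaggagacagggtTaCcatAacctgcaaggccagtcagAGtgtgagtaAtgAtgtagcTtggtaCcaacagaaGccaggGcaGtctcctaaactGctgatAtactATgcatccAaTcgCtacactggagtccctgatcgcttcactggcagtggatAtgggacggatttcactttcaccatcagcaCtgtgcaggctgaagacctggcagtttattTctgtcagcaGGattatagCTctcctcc
The V exons of Igkv9-120 (chr6:68050159-68050456, plus strand) and Igkv9-124 (chr6:67942074-67942371, minus strand) make up family 9 among the names here and were 96.0% identical, with 12 differing bases.
Igkv9-120: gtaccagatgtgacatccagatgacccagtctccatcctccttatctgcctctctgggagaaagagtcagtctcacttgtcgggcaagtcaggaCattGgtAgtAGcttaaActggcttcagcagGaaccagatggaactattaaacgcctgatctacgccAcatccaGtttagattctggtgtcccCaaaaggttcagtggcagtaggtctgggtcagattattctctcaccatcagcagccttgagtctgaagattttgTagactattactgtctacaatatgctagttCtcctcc
Igkv9-124: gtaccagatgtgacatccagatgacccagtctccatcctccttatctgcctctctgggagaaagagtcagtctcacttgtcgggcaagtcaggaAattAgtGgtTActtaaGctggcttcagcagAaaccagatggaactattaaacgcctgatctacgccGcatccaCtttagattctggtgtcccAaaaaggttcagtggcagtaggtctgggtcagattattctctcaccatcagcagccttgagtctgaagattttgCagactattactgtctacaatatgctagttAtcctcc
Igkv8-27 (chr6:70171820-70172119, minus strand, the first 300 of its 311 bases) was nearest to Igkv8-19 at 88.3% identity.
Igkv8-27: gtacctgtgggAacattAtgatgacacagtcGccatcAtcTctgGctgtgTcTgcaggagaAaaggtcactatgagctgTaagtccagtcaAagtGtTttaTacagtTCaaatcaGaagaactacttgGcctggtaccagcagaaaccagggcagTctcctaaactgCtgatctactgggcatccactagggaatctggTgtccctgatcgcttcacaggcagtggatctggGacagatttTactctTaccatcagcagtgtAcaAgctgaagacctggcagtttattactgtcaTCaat
Igkv12-98 (chr6:68570938-68571235, plus strand) and Igkv14-100 (chr6:68519180-68519477, plus strand) were nearest to Igkv12-41 at 82.2% and to Igkv14-111 at 81.5%.
Igkv12-98: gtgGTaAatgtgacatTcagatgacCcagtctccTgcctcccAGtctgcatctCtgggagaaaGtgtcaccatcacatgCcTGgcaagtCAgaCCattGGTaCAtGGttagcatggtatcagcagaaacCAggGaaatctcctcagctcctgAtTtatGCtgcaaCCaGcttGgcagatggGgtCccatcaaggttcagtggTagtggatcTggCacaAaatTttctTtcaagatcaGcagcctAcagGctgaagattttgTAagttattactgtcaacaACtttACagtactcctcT
Igkv14-100: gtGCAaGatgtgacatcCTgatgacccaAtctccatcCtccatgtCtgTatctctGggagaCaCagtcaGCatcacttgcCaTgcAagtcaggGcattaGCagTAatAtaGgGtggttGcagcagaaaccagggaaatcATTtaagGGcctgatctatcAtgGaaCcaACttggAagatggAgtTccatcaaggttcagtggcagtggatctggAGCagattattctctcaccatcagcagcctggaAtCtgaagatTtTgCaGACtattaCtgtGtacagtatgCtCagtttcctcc
For Igkv4-70 the quantified locus covers the leader exon and not the V exon. The coding bases of that leader (chr6:69268364-69268412, minus strand) are identical in 4 other Igkv genes, so no base is in capitals.
Igkv4-70: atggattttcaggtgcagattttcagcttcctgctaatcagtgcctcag

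Across the 73 names, the V exon was 74.9% to 99.0% identical to its nearest relative, with a median of 95.2%. A median of 26.4% of the 50-base words of a transcript also occurred in another Igkv gene. No word was shared by 14 names, among them Igkv6-32, Igkv12-98, Igkv14-100, Igkv19-93 and Igkv5-39, whereas over 50% of the words were shared by 12 names, with a maximum of 81.0% for the pseudogene Igkv3-11. The FPKM of names that share words is uncertain to that extent, since a read from a shared stretch could have been counted for either gene.

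In LacZ-expressing mice the Igkv segments were near 0. In the LacZ saline group 65 of the 90 loci were listed at 0 and 2 reached 1 FPKM, namely Igkv4-70 with 12.4 FPKM and Igkv9-120 with 10.98 FPKM. In LacZ 83 of the 90 loci had the status NOTEST in the authors’ quantification, Igkv4-70 among them, against 13 in HDAC4 wt and 15 in HDAC4 3SA. In the LacZ CFA group 46 loci were listed at 0 and none reached 1 FPKM. The highest member there was Igkv14-100 with 0.78 FPKM. Among all joined loci, 50.4% and 50.5% reached 1 FPKM in these groups.

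In each HDAC4 group some of the segments stood at high levels and others near 0. The median locus stood at 7.32, 13.7, 1.40 and 4.19 FPKM in HDAC4 wt saline, HDAC4 wt CFA, HDAC4 3SA saline and HDAC4 3SA CFA. In the same order 14, 4, 20 and 16 loci were listed at 0. At least 1 FPKM was reached by 56 loci in HDAC4 wt saline, 59 in HDAC4 wt CFA, 49 in HDAC4 3SA saline and 55 in HDAC4 3SA CFA, or 62.2%, 65.6%, 54.4% and 61.1% of the members. Among all joined loci these shares were 52.0%, 52.5%, 51.7% and 52.6%, little above those of the LacZ groups. At least 100 FPKM was reached by 19, 22, 18 and 22 loci, or at most 24.4% of the members, against 2.36% to 2.47% of all joined loci. At least 1000 FPKM was reached by 4, 4, 4 and 3, or 3.33% to 4.44% of the members against 0.214% to 0.243% of all loci. The Igkv sum held 1.67%, 4.14%, 1.88% and 1.70% of the FPKM of all joined loci in the HDAC4 groups, against 0.00388% and 0.00102% in LacZ saline and LacZ CFA.

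The summed Igkv level was 24.7 FPKM in LacZ saline, 6.58 in LacZ CFA, 12687 in HDAC4 wt saline, 30370 in HDAC4 wt CFA, 13764 in HDAC4 3SA saline and 12645 in HDAC4 3SA CFA. The HDAC4 wt CFA sum stood far above those of the other HDAC4 groups mostly through 1 locus. Without Igkv4-70 the sums of the HDAC4 groups were 12687, 14286, 13497 and 12624 FPKM, with HDAC4 wt CFA still the highest.

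**Figure D1:**
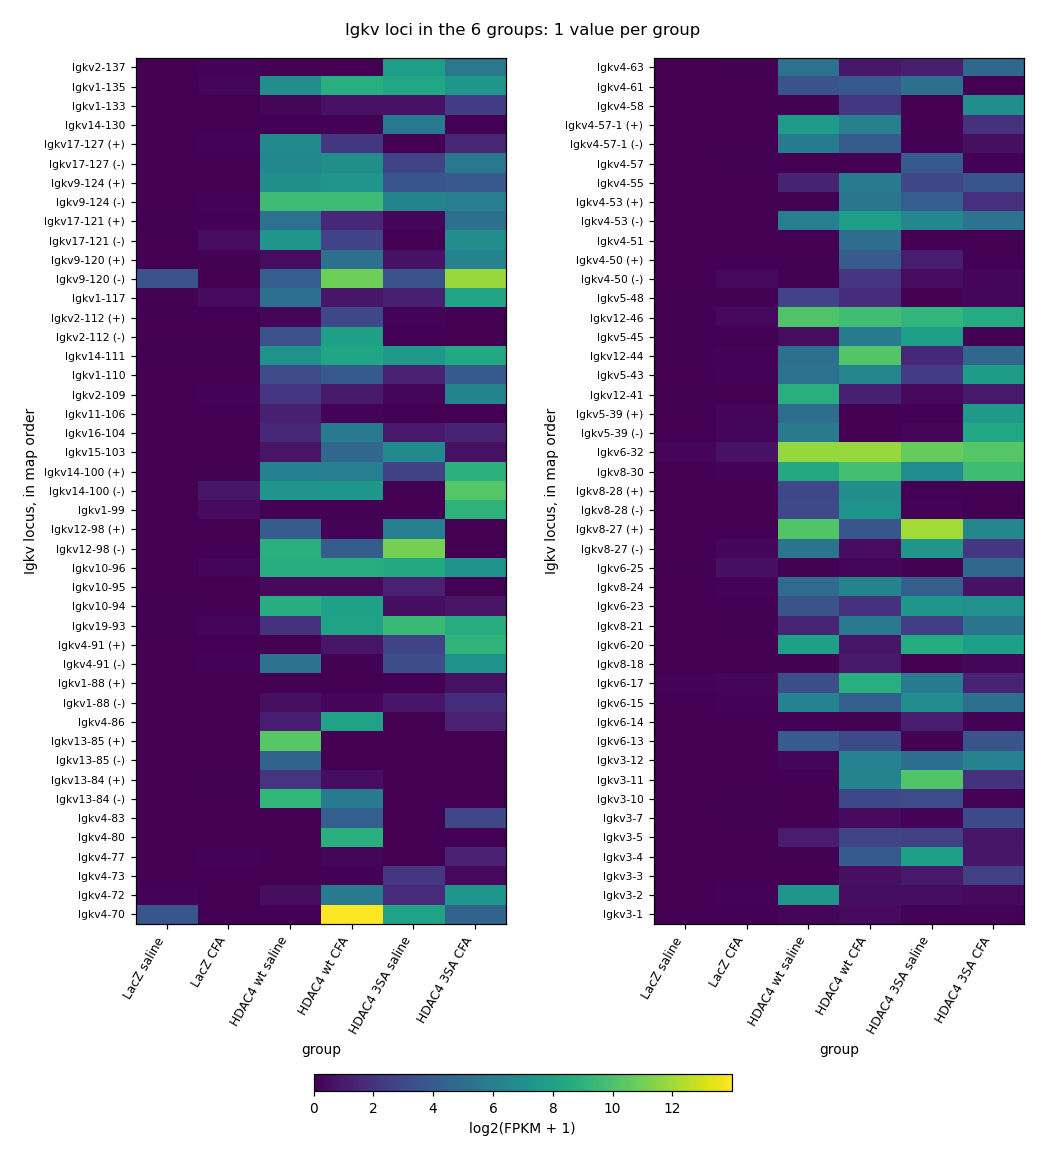
Level of each of the 90 Igkv loci (rows, in map order, in 2 columns of panels) in the 6 groups (columns), as log2(FPKM + 1), with 1 value per group. Names with a sign in parentheses have a locus in each of 2 runs of identifiers, one for each strand. The LacZ columns are dark, and the bright cells differ between the HDAC4 columns except for segments such as Igkv6-32 and Igkv12-46.

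Against the LacZ group with the same injection, 55 of the 90 loci were over 2-fold higher in HDAC4 wt saline, where 3.07% of all joined loci were, with 1 FPKM added to each value. The count was 59 in HDAC4 wt CFA with 3.44% of all loci, 48 in HDAC4 3SA saline with 2.37%, and 55 in HDAC4 3SA CFA with 3.8%. Both HDAC4 vectors were set against the same LacZ mice, so these counts are not independent of each other. The only member that was over 2-fold lower was Igkv4-70, which was listed at 0 in HDAC4 wt saline. The median locus of the series differed by at most 0.01 on the log2 scale in these comparisons.

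Genes that act with the kappa V segments were higher alongside them. Igkc, which encodes the kappa constant domain, stood at 0.117, 0.268, 419, 446, 283 and 362 FPKM in LacZ saline, LacZ CFA, HDAC4 wt saline, HDAC4 wt CFA, HDAC4 3SA saline and HDAC4 3SA CFA. Jchain, the protein that joins secreted IgA and IgM into larger forms, stood at 0.205, 0.289, 262, 282, 167 and 227 FPKM. All 4 HDAC4 groups lay far above both LacZ groups for each gene. Of the list of kappa and lambda light chain genes and Jchain, 9 loci of 8 names could be matched, and 7 of the 9 were over 2-fold higher than in LacZ in each HDAC4 group, against 2.37% to 3.8% of all joined loci.

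**Figure D2:**
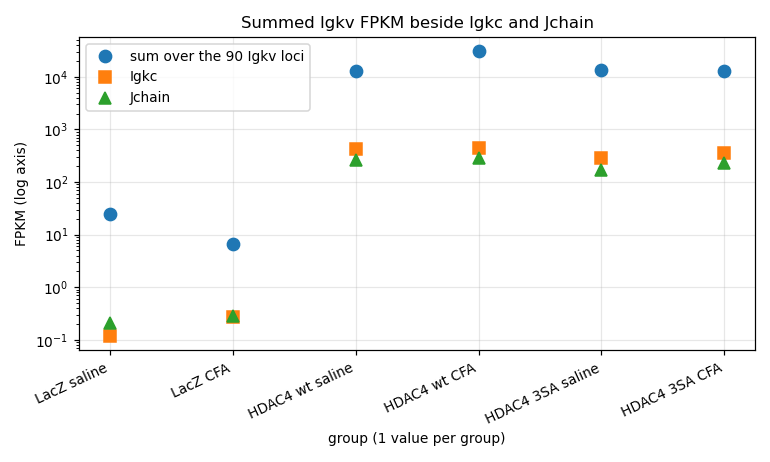
FPKM on a log axis for the sum over the 90 Igkv loci, for Igkc and for Jchain in the 6 groups, with 1 value per group. All 3 quantities are higher in the HDAC4 groups than in the LacZ groups. In HDAC4 wt the CFA to saline ratio was 2.39 for the Igkv sum, mostly through Igkv4-70, against 1.06 for Igkc and 1.07 for Jchain. Without Igkv4-70 the HDAC4 wt sums were 12687 and 14286 FPKM. In HDAC4 3SA the ratios were 0.919, 1.28 and 1.36.

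Of 29 loci of 25 genes of B cells and plasma cells, 19, 19, 17 and 18 were over 2-fold higher than in LacZ in HDAC4 wt saline, HDAC4 wt CFA, HDAC4 3SA saline and HDAC4 3SA CFA, against 3.07%, 3.44%, 2.37% and 3.8% of all joined loci. Igha, the constant gene of IgA, went from 0.0513 FPKM in LacZ saline and 0.24 in LacZ CFA to 269, 435, 120 and 90.9 in these groups. Mzb1, a chaperone for antibody assembly in plasma cells, stood at 0.0666, 0.127, 23.1, 20.7, 15.5 and 19.3 FPKM. Cd79a, part of the B cell receptor complex, stood at 0.333, 1.18, 8.42, 10.4, 6.27 and 7.78 FPKM. Ms4a1, which encodes a surface protein of B cells that plasma cells lose, stood at 0.17 and 0.334 FPKM in the LacZ groups and at 0.55 to 0.81 in the HDAC4 groups. Some genes of the list were lower in HDAC4 wt CFA than in LacZ CFA. In the 6 groups Pax5 stood at 0.298, 0.387, 0.42, 0.341, 0.45 and 0.381 FPKM. Blk stood at 0.0429, 0.204, 0.323, 0.161, 0.161 and 0.216 FPKM. Ighd, the constant gene of IgD, stood at 0.26, 0.71, 0.517, 0.541, 0.426 and 0.437 FPKM.

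Markers of other cells moved as well. The summed level of the T cell genes Cd3e, Cd3g and Trac was 1.99, 2.27, 9.82, 14.3, 5.33 and 9.74 FPKM in the 6 groups, and 3, 3, 1 and 3 of the 3 were over 2-fold higher than in LacZ in the HDAC4 groups, against 2.37% to 3.8% of all joined loci. The neutrophil genes S100a8, S100a9 and Ly6g summed to 8.59, 89.9, 31.8, 24.8, 48.0 and 31.9 FPKM, and were thus highest in LacZ CFA. Spinal neuron genes, with Snap25 as the highest, summed to 1448 and 1371 FPKM in LacZ saline and LacZ CFA and to 981, 875, 1030 and 787 in the HDAC4 groups. That sum was mostly Snap25, and Tac1 of the same list, the precursor of substance P, did not follow it, with 34.5 and 45.0 FPKM in LacZ and 44.9, 38.3, 33.9 and 26.6 in the HDAC4 groups. Astrocyte genes summed to 557 and 561 FPKM in LacZ and to 1031, 1278, 1014 and 1341 in the HDAC4 groups, and microglia genes to 30.0 and 30.2 against 66.3, 76.3, 58.3 and 78.7. Both glial sums were thus higher in every HDAC4 group, but the astrocyte sum was mostly Gfap, and Slc1a3, an astrocyte glutamate transporter, stood lower, at 38.4 and 35.9 FPKM in LacZ against 27.2, 29.3, 28.4 and 26.7. Over the 6 groups, oligodendrocyte genes summed to 104 to 128 FPKM and meningeal fibroblast genes to 87.1 to 119. Red blood cell genes summed to 141 and 260 FPKM in LacZ saline and LacZ CFA, and to 187, 203, 347 and 394 in the HDAC4 groups. The labelled tissue was thus represented by its neuron and glia markers in all groups. Of all genes of these lists, Ighg1 alone was listed at 0, in both LacZ groups. The part of these cells in the Igkv levels was not tested.

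A few segments held most of the Igkv signal in each HDAC4 group. The 5 highest loci held 61.0% of the sum in HDAC4 wt saline, 78.0% in HDAC4 wt CFA, 71.2% in HDAC4 3SA saline and 58.8% in HDAC4 3SA CFA. It took 4, 1, 3 and 4 loci to reach 50% of the sum and 17, 12, 13 and 19 to reach 90%. The effective number of loci, the inverse of the summed squared shares, was 8.95, 3.29, 6.84 and 8.76. In LacZ saline the 5 highest loci held 96.4% of a sum of only 24.7 FPKM, and in LacZ CFA 39.6% of 6.58 FPKM.

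The order of the leading segments differed between the HDAC4 groups. In HDAC4 wt saline Igkv6-32 led with 3411 FPKM (26.9% of the sum), before Igkv13-85 with 1301, Igkv8-27 with 1159, Igkv12-46 with 1113 and Igkv9-124 with 755. In HDAC4 wt CFA Igkv4-70 led with 16084 FPKM (53.0%), before Igkv6-32 with 3631, Igkv9-120 with 1910, Igkv12-44 with 1192 and Igkv8-30 with 879. In HDAC4 3SA saline the leading loci were Igkv8-27 with 4185 FPKM (30.4%), Igkv12-98 with 2159, Igkv6-32 with 1634, the pseudogene Igkv3-11 with 1144 and Igkv19-93 with 679. In HDAC4 3SA CFA they were Igkv9-120 with 3557 FPKM (28.1%), Igkv14-100 with 1268, Igkv6-32 with 1244, Igkv8-30 with 805 and Igkv4-91 with 561. Each of the 4 groups was led by a different locus, and Igkv6-32 was the only one among the first 3 in all of them. The leaders depend on the loci and unit used. Over loci of at least 200 bp, and by FPKM times locus length, Igkv6-32 led both HDAC4 wt groups. By FPKM times the annotated exon bases within the locus, Igkv6-32 with 20.5% and Igkv4-70 with 19.8% stood side by side in HDAC4 wt CFA. Over loci on the annotated strand of their gene, Igkv6-32 led every HDAC4 group except HDAC4 wt CFA.

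Some segments were present in every HDAC4 group. In all 4 groups 22 loci reached 1 FPKM, 22 did in 3 groups, 22 in 2 groups and 21 in 1 group, and 3 did in none. The 22 loci in all 4 groups were 24.4% of the members, against 48.4% of all joined loci, and 72.2% of the members reached 1 FPKM in 1 to 3 groups, against 8.32% of all loci. In no group was it reached by 3.33% of the members, against 43.3% of all loci, which limits this comparison. At least 100 FPKM in all 4 groups was found for 6 loci, or 6.67% of the members, against 2.02% of all loci. Igkv6-32 stood at 0.167, 0.629, 3411, 3631, 1634 and 1244 FPKM in LacZ saline, LacZ CFA, HDAC4 wt saline, HDAC4 wt CFA, HDAC4 3SA saline and HDAC4 3SA CFA. In the same order Igkv12-46 stood at 0.0672, 0.236, 1113, 823, 584 and 391 FPKM. For both segments, both HDAC4 wt groups lay above both HDAC4 3SA groups, and saline and CFA differed by less than 2-fold within each vector.

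The other loci above 100 FPKM throughout were Igkv10-96, Igkv1-135, Igkv14-111 and Igkv8-30. Igkv10-96 stood at 414, 414, 355 and 139 FPKM in HDAC4 wt saline, HDAC4 wt CFA, HDAC4 3SA saline and HDAC4 3SA CFA. Igkv14-111 was about 2-fold higher in CFA for both vectors, at 146 and 296 FPKM for HDAC4 wt and 178 and 360 FPKM for HDAC4 3SA. Igkv1-135 went in opposite directions, from 115 to 435 FPKM in HDAC4 wt and from 320 to 162 FPKM in HDAC4 3SA. Igkv8-30 was higher in the CFA group of both vectors, 339 against 879 FPKM and 105 against 805 FPKM. The 6 segments belong to families 1, 6, 8, 10, 12 and 14, and so no 2 of them share a family.

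V families held unequal and shifting shares. The ratio of the highest to the lowest share over the HDAC4 groups was smallest for family 6, at 2.22, and largest for family 19 among families above 0 in all of them, at 196. Family 6 held 29.7%, 13.5%, 17.1% and 13.3% of the sum in HDAC4 wt saline, HDAC4 wt CFA, HDAC4 3SA saline and HDAC4 3SA CFA, most of it Igkv6-32. Igkv4-70 enters the sum of HDAC4 wt CFA, and over loci of at least 200 bp family 6 held 28.7% there, near its share in HDAC4 wt saline. Family 4, the largest with 21 loci of 17 names, held 3.20%, 57.2%, 3.30% and 8.61%. Its share in HDAC4 wt CFA was mostly that of Igkv4-70, which held 53.0%, and was 8.80% over the loci of at least 200 bp. Family 8 was highest in HDAC4 3SA saline with 32.5%, against 12.5%, 4.21% and 7.42% in HDAC4 wt saline, HDAC4 wt CFA and HDAC4 3SA CFA, where the HDAC4 wt CFA value was 8.97% over loci of at least 200 bp. Family 9 was highest in HDAC4 3SA CFA with 29.3%, against 7.07%, 9.46% and 0.744% in the other 3, and its HDAC4 wt CFA value was 20.1% over loci of at least 200 bp. Most of the highest value of each of these families lay in loci of the strand opposite to the annotated gene, and without those loci the shares were 3.84% for family 8 and 1.99% for family 9.

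Family 12 held 16.2%, 6.69%, 20.4% and 3.30% of the sum in the same order. Its summed level in HDAC4 wt was nearly equal in saline and CFA, at 2050 and 2033 FPKM, and its share in HDAC4 wt CFA was 14.2% over loci of at least 200 bp. In HDAC4 3SA its level was 2810 FPKM in saline and 417 in CFA. Family 14 held 2.90%, 1.74%, 1.70% and 16.8%, with the last value carried by both loci of Igkv14-100. Family 13, with the 2 names Igkv13-84 and Igkv13-85, held 15.3% in HDAC4 wt saline and 0.172% in HDAC4 wt CFA, and all 4 of its loci were listed at 0 in both HDAC4 3SA groups. The V exons of this pair were 97.0% identical. Family 3 was highest in HDAC4 3SA saline with 10.4%, mostly Igkv3-11, against 1.25%, 0.584% and 0.709% elsewhere.

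**Figure D3:**
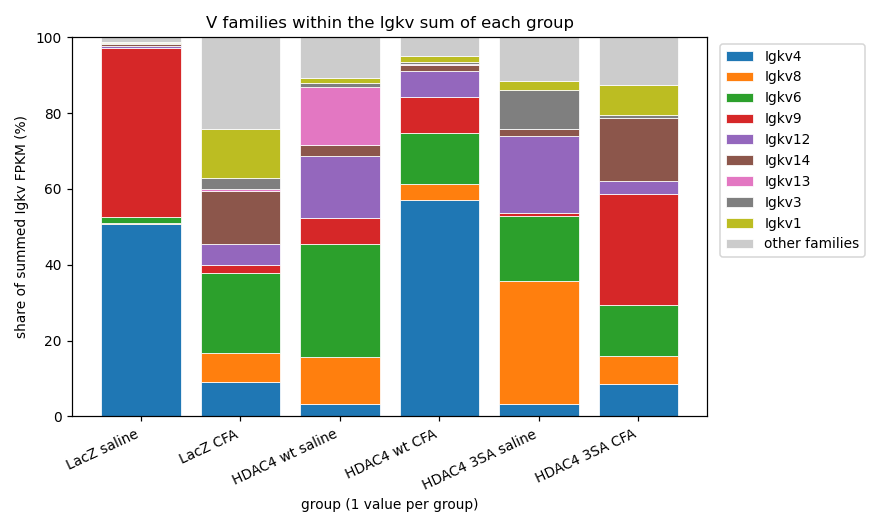
Share of the summed Igkv FPKM held by each V family in the 6 groups, as stacked bars that start at 0 and end at 100%, with 1 value per group. The leading family is 6 in HDAC4 wt saline, 4 in HDAC4 wt CFA, 8 in HDAC4 3SA saline and 9 in HDAC4 3SA CFA. The LacZ bars split sums of only 24.7 and 6.58 FPKM.

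Shares by position along chromosome 6 shifted as well. The members were cut into 3 equal parts of 30 loci by distance from Igkc. The nearest part, 14.1 to 904 kb from Igkc, held 48.2%, 22.5%, 59.97% and 27.4% of the sum in HDAC4 wt saline, HDAC4 wt CFA, HDAC4 3SA saline and HDAC4 3SA CFA. The middle part, 942 to 1950 kb away, held 27.3%, 60.2%, 9.18% and 11.7%, and the part farthest away, up to 3163 kb, held 24.5%, 17.3%, 30.8% and 60.9%. Without Igkv4-70, which lies in the middle part, the 3 parts held 47.8%, 15.4% and 36.8% in HDAC4 wt CFA. At least 1 FPKM was reached by 14 to 22 of the 30 loci of each part in each HDAC4 group, and each part thus held segments above that level in every HDAC4 group.

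Between saline and CFA many segments changed places. With 1 FPKM added, 35 of the 90 loci were over 2-fold higher in HDAC4 wt CFA than in HDAC4 wt saline, where 0.854% of all joined loci were, and 26 were over 2-fold lower, where 0.553% of all loci were. In HDAC4 3SA 35 loci were higher with 1.17% of all loci, and 24 were lower with 0.538%. In LacZ 0 loci were higher with 0.345% of all loci, and 2 were lower, Igkv4-70 and Igkv9-120, with 0.313%. A difference over 10-fold was found for 24 loci with the higher value in CFA and 18 with the higher value in saline in HDAC4 wt, where 0.176% and 0.111% of all joined loci were, and for 19 and 14 in HDAC4 3SA, where 0.14% and 0.0819% were. As shares of the members, 38.9% were higher and 28.9% lower in HDAC4 wt and 38.9% and 26.7% in HDAC4 3SA, all above the background shares, with a median log2 difference of 0.16 in HDAC4 wt and 0.00 in HDAC4 3SA.

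The list of segments above 1 FPKM also turned over. In HDAC4 wt 42 loci reached 1 FPKM in both groups, 14 in saline only, 17 in CFA only and 17 in neither. The shared loci were 75.0% of the saline list and 71.2% of the CFA list. In HDAC4 3SA 34 loci reached it in both groups, 15 in saline only, 21 in CFA only and 20 in neither, and the shared loci were 69.4% of the saline list and 61.8% of the CFA list. Over all joined loci, 94.9% to 96.9% of either list was shared, in any of the 3 vectors. Of the 10 highest loci, 3 were shared between saline and CFA in each HDAC4 vector.

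The Bray-Curtis distance between the shares of 2 groups is 0 for equal shares and 1 for no overlap. Between saline and CFA the Igkv loci of HDAC4 wt lay 0.718 apart and those of HDAC4 3SA 0.731, against 0.156 and 0.102 for the other joined loci whose mean reached 1 FPKM. In LacZ the distance was 0.957 on sums of 24.7 and 6.58 FPKM, against 0.0618 for the other loci. Between the groups of different HDAC4 vectors it was 0.610 to 0.747. Over loci of at least 200 bp, which leaves out Igkv4-70, the distance was 0.472 in HDAC4 wt, 0.732 in HDAC4 3SA and 0.553 to 0.716 between the vectors. Spearman’s rho between the saline and CFA values of the 90 loci was 0.315 for HDAC4 wt, 0.34 for HDAC4 3SA and 0.38 for LacZ. Over the other loci it was 0.967, 0.966 and 0.985. These are descriptions over loci that share libraries, and the other loci had a floor on their mean that the members did not have.

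**Figure D4:**
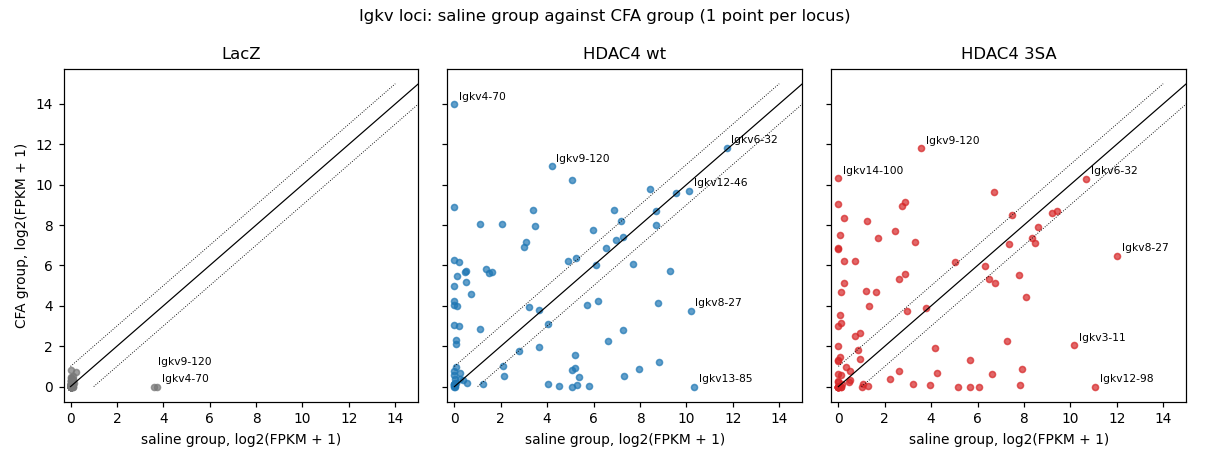
Saline group against CFA group for the 90 Igkv loci in LacZ, HDAC4 wt and HDAC4 3SA, both axes log2(FPKM + 1), with 1 point per locus. The solid line marks equal values and the dotted lines a 2-fold difference. Igkv6-32 lies near the line in both HDAC4 panels, while Igkv4-70, Igkv13-85, Igkv12-98 and Igkv9-120 lie far from it.

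In HDAC4 wt the segments with the largest difference in favour of CFA on the log2(FPKM + 1) scale were Igkv4-70, Igkv4-80, Igkv4-86, Igkv9-120 and Igkv3-11. Igkv4-70 was listed at 0 in HDAC4 wt saline and stood at 16084 FPKM in HDAC4 wt CFA, with 268 and 20.5 FPKM in HDAC4 3SA saline and CFA. Igkv4-80, whose leader is identical to that of Igkv4-70, was at 470 FPKM in HDAC4 wt CFA and listed at 0 in the other 5 groups. Igkv4-86 went from 1.14 to 269 FPKM. Igkv9-120 went from 17.2 to 1910 FPKM, which is 111-fold. Igkv3-11, a pseudogene, was listed at 0 in saline and stood at 75.9 FPKM in CFA. The first 3 of these 5 segments belong to family 4.

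The largest differences in favour of saline in HDAC4 wt were those of Igkv13-85, Igkv12-41, Igkv6-20, Igkv3-2 and Igkv8-27. The higher locus of Igkv13-85 stood at 1301 FPKM in HDAC4 wt saline and was listed at 0 in the other 5 groups. Igkv12-41 was 343-fold lower, at 449 and 1.31 FPKM, and Igkv6-20 301-fold lower, at 246 and 0.816 FPKM. Igkv3-2 stood at 157 FPKM in saline and 0.423 FPKM in CFA. The values of Igkv8-27 were 1159 and 12.5 FPKM, which is 92.9-fold. These 5 come from 5 different families.

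In HDAC4 3SA the largest differences in favour of CFA were those of Igkv14-100, Igkv1-99, Igkv9-120 and both loci of Igkv5-39. The higher locus of Igkv14-100 was listed at 0 in HDAC4 3SA saline and stood at 1268 FPKM in HDAC4 3SA CFA, while its HDAC4 wt values were 153 and 168 FPKM. The other locus of Igkv14-100 stood at 5.61 and 496 FPKM in HDAC4 3SA saline and CFA. Igkv1-99 was at 521 FPKM in HDAC4 3SA CFA and at 0.35 FPKM or less in the other 5 groups. Igkv9-120 was 328-fold higher, at 10.9 and 3557 FPKM. The higher locus of Igkv5-39 went from 0.193 to 329 FPKM in HDAC4 3SA and the opposite way, from 54.3 to 0.0276 FPKM, in HDAC4 wt.

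The largest differences in favour of saline in HDAC4 3SA were those of both loci of Igkv12-98, Igkv3-11, Igkv5-45 and Igkv3-4. The higher locus of Igkv12-98 stood at 2159 FPKM in HDAC4 3SA saline and was listed at 0 in HDAC4 3SA CFA, with 439 and 16.6 FPKM in HDAC4 wt. Igkv3-11 was 363-fold lower, at 1144 and 3.15 FPKM, but went from 0 to 75.9 FPKM in HDAC4 wt. Igkv5-45 stood at 225 and 0.0701 FPKM in HDAC4 3SA and at 0.389 and 50.6 FPKM in HDAC4 wt. Igkv3-4 stood at 239 and 0.813 FPKM in HDAC4 3SA and at 0.0715 and 14.6 FPKM in HDAC4 wt. The last 3 segments thus differed in opposite directions in the 2 vectors.

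Over all 90 loci, 12 were over 2-fold higher in CFA in both HDAC4 vectors and 5 were lower in both. In 12 the CFA value was higher in HDAC4 wt and lower in HDAC4 3SA, and in 10 it was lower in HDAC4 wt and higher in HDAC4 3SA. The remaining loci were beyond 2-fold in 1 vector only (42 loci) or in neither (9 loci). Opposite directions were thus found for 22 loci and a shared direction for 17. Among the 34085 joined loci that are not members, the directions were opposite for 56 and shared for 74. Igkv9-120 was higher in both CFA groups, Igkv8-27 was lower in both, and Igkv19-93 went from 3.20 to 264 FPKM in HDAC4 wt and from 679 to 420 FPKM in HDAC4 3SA. The higher locus of Igkv17-121, which had the third largest difference in favour of CFA in LacZ, went from 154 to 6.01 FPKM in HDAC4 wt and from 0 to 114 FPKM in HDAC4 3SA.

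In LacZ the differences were small in FPKM. The largest ones in favour of CFA were from 0 to 0.78 FPKM for the higher locus of Igkv14-100 and from 0.167 to 0.629 FPKM for Igkv6-32, followed by Igkv17-121, Igkv6-25 and Igkv1-99, which reached 0.35 to 0.462 FPKM in LacZ CFA. After Igkv4-70 and Igkv9-120, the largest ones in favour of saline were of Igkv4-72, Igkv10-94 and Igkv3-12, from at most 0.0875 FPKM to 0. Of the 10 highest loci, 4 were shared between LacZ saline and LacZ CFA.

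The constant gene did not turn over in the same way. Igkc was 1.06-fold higher in CFA in HDAC4 wt and 1.28-fold in HDAC4 3SA, and Jchain 1.07-fold and 1.36-fold. The summed Igkv FPKM was 30.3, 68.1, 48.7 and 35.0 times that of Igkc in HDAC4 wt saline, HDAC4 wt CFA, HDAC4 3SA saline and HDAC4 3SA CFA. Over loci of at least 200 bp it was 30.3, 32.0, 47.7 and 34.9 times. The Igkc locus (chr6:70718763-70729890) is longer than every Igkv locus, and the lengths by which the authors’ FPKM were divided are not known here. These ratios therefore do not count V transcripts against constant transcripts. Heavy chain V segments, the Ighv loci, showed a similar spread, with 56 of 120 loci over 2-fold higher and 33 lower in HDAC4 wt CFA, and 45 higher and 30 lower in HDAC4 3SA CFA. Of all joined loci, 0.854% were higher and 0.553% lower in HDAC4 wt CFA, and 1.17% and 0.538% in HDAC4 3SA CFA.

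Lambda light chain genes and heavy chain constant genes moved in part. Iglv2, a lambda V segment, stood at 142 and 1.26 FPKM in HDAC4 wt saline and CFA, and at 1.42 and 18.8 FPKM in HDAC4 3SA. Iglv1 stood at 121 and 91.7 FPKM and at 51.9 and 280 FPKM. Of the 9 loci of the list with Igkc and Jchain, 0 were over 2-fold higher and 2 lower in HDAC4 wt CFA (Iglc2 and Iglv2), and 4 were higher and 0 lower in HDAC4 3SA CFA. The shares of all joined loci for these counts were 0.538% to 1.17%. Ighg3, the constant gene of IgG3, went from 29.2 to 161 FPKM in HDAC4 wt and from 45.3 to 15.8 FPKM in HDAC4 3SA. It was the only locus of 29 over 2-fold higher in the list of B and plasma cells in HDAC4 wt, and the only one lower in HDAC4 3SA. The only locus of that list over 2-fold higher in HDAC4 3SA CFA was one of 2 loci of Ighm, the constant gene of IgM, at 35.7 and 103 FPKM in saline and CFA.

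A few of the loci were much shorter than most. Loci were 80 to 1034 bp long with a median of 568.5 bp, and 3 were shorter than 200 bp: Igkv4-70 with 80 bp, Igkv4-83 with 98 bp and Igkv3-3 with 157 bp. FPKM divides by the length of exon, so a given number of fragments gives a higher value where that length is small. The longest locus, Igkv3-1 with 1034 bp, was at 0.318 FPKM or less in every group. Across the 90 loci, Spearman’s rho between length and FPKM was -0.11 in LacZ saline, 0.20 in LacZ CFA, 0.07 in HDAC4 wt saline, -0.05 in HDAC4 wt CFA, -0.09 in HDAC4 3SA saline and 0.16 in HDAC4 3SA CFA. The rank correlation with length was thus weak in each group, over loci that share libraries and sequence, but the levels did not vary evenly with length. In HDAC4 wt saline the median was 0.994 FPKM for the 18 loci of 200 to 500 bp, 25.01 for the 30 of 500 to 600 bp, 32.1 for the 23 of 600 to 700 bp and 1.84 for the 16 longer ones. Spearman’s rho of FPKM with the share of the annotated exons that a locus covers was 0.51 in HDAC4 wt saline and 0.06 to 0.31 in the other 5 groups.

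The 3 short loci held 53.0% of the Igkv sum in HDAC4 wt CFA, 1.95% in HDAC4 3SA saline and 0.259% in HDAC4 3SA CFA. In HDAC4 wt saline they were listed at 0. Igkv4-70 made up 99.9%, 99.7% and 62.6% of these shares. Its 80 bp match exon 1 of the annotated gene (69268364 to 69268443), with 31 untranslated and 49 coding bases, and do not reach exon 2, the V exon of 299 bases. Multiplied by locus length, Igkv4-70 held 13.4% of the HDAC4 wt CFA sum instead of 53.0%. Locus length includes the intron of most other members but none for Igkv4-70, and multiplied by the annotated exon bases within each locus its share was 19.8%. The transcript lengths by which the authors’ FPKM were divided are not known here, so neither share is one of fragments. Its leader was identical to those of Igkv4-61, Igkv4-74, Igkv4-78 and Igkv4-80, and at least 90% identical to 22 of 99 leaders compared. Of the 31 words of 50 bases in the locus, 3 occurred in another Igkv gene.

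**Figure D5:**
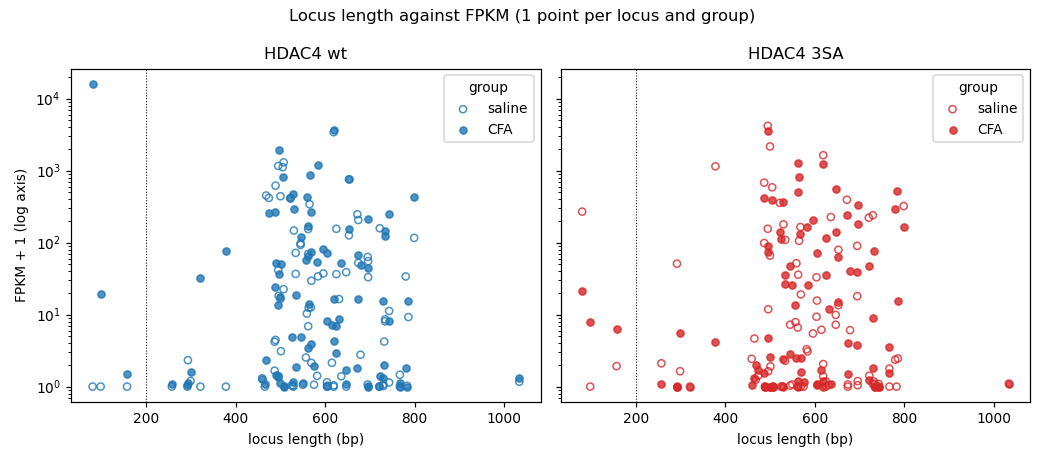
Locus length in bp against FPKM + 1 on a log axis for the HDAC4 wt and HDAC4 3SA groups, open circles for saline and filled circles for CFA, with 1 point per locus and group. The dotted line is at 200 bp. The point at 80 bp and 16084 FPKM is Igkv4-70 in HDAC4 wt CFA, and the other loci lie between 0 and 4185 FPKM.

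For 17 names the tables hold 2 loci at the same position, 34 loci in all. Their identifiers fall in 2 runs, and names with a single locus show what the runs are: all 25 in the first run are annotated on the plus strand and all 31 in the second on the minus strand. Of the 17 names, 12 were higher in the locus of the strand opposite to the gene. Igkv8-27 had 4185 FPKM in the opposite run and 155 FPKM in its own in HDAC4 3SA saline, and Igkv9-120 had 3557 and 74.2 FPKM in HDAC4 3SA CFA. The values given above for Igkv8-27, Igkv9-120, Igkv12-98, Igkv13-85, Igkv14-100, Igkv17-121 and, in HDAC4 3SA CFA, Igkv4-91 are those of the opposite run.

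The split between both loci of a name was steady for some names and not for others. Where a pair summed to at least 1 FPKM in 2 or more HDAC4 groups, which held for 15 names, the share of the annotated strand varied by at most 20 percentage points in 12 and by more in 3. The locus of the annotated strand held 3.39%, 2.87%, 3.56% and 4.10% of the pair for Igkv8-27 in HDAC4 wt saline, HDAC4 wt CFA, HDAC4 3SA saline and HDAC4 3SA CFA. For Igkv9-120 it held 2.26%, 1.81%, 5.51% and 2.04%, and for Igkv9-124, where the annotated strand was the higher one, 84.5% over the 4 groups. The 3 names with the wider variation were Igkv14-100, Igkv17-127 and Igkv4-91, where that share was 27.9% to 100%, 0.562% to 51.2% and 19.95% to 100%. Loci opposite to their gene held 34.0%, 9.65%, 46.5% and 46.2% of the whole Igkv sum in the HDAC4 groups. Libraries were made to keep the strand, but whether the counting used it is not given in the sources used here, so reads of a pair cannot be assigned to one strand. With the loci of a name summed, 45, 49, 44 and 46 of the 73 names reached 1 FPKM in the HDAC4 groups.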

How the data were processed

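RNA of dorsal spinal cord of 18 mice in 6 groups of 3 was sequenced from poly-A-selected, strand-specific libraries as single-end reads of 50 bases. The authors mapped the reads with TopHat and Bowtie to GRCm38 (mm10) and quantified them with Cufflinks and Cuffdiff, and they deposited 1 table per vector. The deposited FPKM values are 1 estimate per locus and group over its 3 mice. Counts, depth and values per mouse were not analysed here, so neither an interval nor a test was computed. The authors’ log2 fold changes, test statistics, p-values and q-values of CFA against saline are also in the tables and were not used.

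Loci were joined by identifier where all 3 tables gave the same name, status OK or NOTEST and overlapping positions, and positions were written from 1. A difference beyond 2-fold was counted as log2((CFA + 1)/(saline + 1)) above 1 or below -1, with no filter on level. Annotation, V exons and 50-base words came from GENCODE M21, and all 73 names matched. V exons were aligned globally with Biopython 1.88. Identity was the number of equal bases over the longer exon. Tables were handled with pandas and SciPy in Python, and the counting functions were tested on simulated data. The members named were the 10 with the highest mean over the 6 groups, the 5 largest differences in each direction per vector, the highest per group and the longest and shortest locus. Members and lists were chosen with earlier results of these data known. Promoter motifs and recombination signals were not analysed here.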

Additional observations from a re-analysis of the deposited data

Results flagged for a closer look

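Within the stretch of chromosome 6 that holds the Igkv members, 2 of the loci without an Igkv name reached 1 FPKM in an HDAC4 group while above both LacZ values, and belong to no comparison above. A locus of 64 bp with no gene name (chr6:70129493-70129556) stood at 104 FPKM in LacZ saline, 122 in LacZ CFA, 307 in HDAC4 wt saline, 138 in HDAC4 wt CFA, 321 in HDAC4 3SA saline and 179 in HDAC4 3SA CFA. It lies between Igkv8-30 and Igkv8-28 and, unlike the members, was above 100 FPKM in both LacZ groups. Gm42667, annotated as an immunoglobulin V pseudogene, with a locus of 61 bp (chr6:70405759-70405819), stood at 164 FPKM in HDAC4 3SA saline and was listed at 0 in the other 5 groups. Both loci are shorter than 200 bp.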

How the results depend on the processing

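The precision of a single FPKM value is unknown, and no value could be recomputed without a mouse. No paired analysis was possible because the tables hold 1 value per group and none per mouse. Of 165 values recomputed for 35 results, 146 stayed within 1.5 times the value given (0.1 for a correlation) and 19 did not, 11 of them in LacZ, where values are near 0. Summing the loci of a name, a fold of 4, a floor of 1 FPKM on the mean and a threshold of 5 FPKM moved none, and in no table does a locus carry several names of which one is Igkv. Summing names, keeping the annotated strand, weighting by exon bases and all alternatives to the comparisons with LacZ and to the Bray-Curtis distance were chosen after seeing the data. In LacZ the loci higher in CFA numbered 14 with 0.1 FPKM added and 3 with values scaled to the Igkv sum. Over loci of at least 200 bp, as over those of the annotated strand, 1 locus was lower in LacZ CFA and 1 reached 1 FPKM in LacZ saline. At a threshold of 0.5 FPKM over all 90 loci, 2 reached it in LacZ CFA. The share of family 4 in LacZ saline was 14.6% by FPKM times locus length, 19.3% by FPKM times exon bases, 0.715% over loci of at least 200 bp and 91.5% over the annotated strand, and in HDAC4 wt CFA it was 21.03% by locus length, 26.8% by exon bases and 8.80% over loci of at least 200 bp. Keeping the annotated strand gave 44.9% for family 6 in HDAC4 wt saline, 3.84% for family 8 in HDAC4 3SA saline and 1.99% for family 9 in HDAC4 3SA CFA. Spearman’s rho of length and FPKM in HDAC4 wt saline was -0.14 over loci of at least 1 FPKM. Over loci of at least 200 bp the Bray-Curtis distance of HDAC4 wt was 0.472. The alternatives by length, strand or level leave out loci by construction, and for the others the cause was not tested.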
